A study of Mus musculus with 6 samples.

Results

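Genes of antigen presentation were measured by RNA-seq in a mouse cell line at day 2 of beige adipocyte differentiation. The set took every gene whose symbol begins with H2-, the prefix of the mouse major histocompatibility complex (MHC), without the 3 symbols marked as pseudogenes by "-ps", and added B2m, Tap1, Tap2, Tapbp, Tapbpl, Psmb8, Psmb9, Psmb10, Psme1, Psme2, Nlrc5, Erap1, Ciita and Cd74. It held 56 of the 56884 gene IDs in the tables, with 55 symbols, because H2-K2 has 2 gene IDs. They fell into 2 classical class I genes, 28 non-classical class I genes, 14 genes of class II and 12 genes that process peptides, load them or switch on class I genes.

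The cells were a line of stromal vascular fraction (SVF) cells from mouse subcutaneous white adipose tissue (scWAT), described by the study as immortalized. They carried a retroviral vector for HA-tagged PPARγ2, the adipocyte-specific form of the nuclear receptor that drives fat cell formation. Its lysine 382 was changed to glutamine (K382Q) or to arginine (K382R), and stable lines were established by puromycin selection. Glutamine resembles an acetylated lysine and arginine keeps the charge of lysine but cannot be acetylated. Both groups, with 3 libraries each labelled as biological replicates, received the same induction medium with isobutylmethylxanthine, indomethacin, dexamethasone, insulin, T3 and rosiglitazone, a PPARγ agonist. The mutants were made on top of the cells' own Pparg gene, and cells with an empty vector, with wild-type PPARγ2 or without induction were not analysed here, so each value below sets one mutant against the other. Nothing in the labels says how the cultures of a group were separated, and the p-values measure the spread between these libraries.

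Class I molecules show peptides from inside the cell to CD8+ T cells. The peptides are cut by the proteasome, in which interferon can replace the constitutive catalytic subunits by the induced subunits Psmb8, Psmb9 and Psmb10 to form the immunoproteasome, carried into the endoplasmic reticulum (ER) by the transporter Tap1/Tap2, trimmed by Erap1 and loaded with the help of tapasin (Tapbp) on a heavy chain that is paired with β2-microglobulin (B2m). Adipocytes and their precursors make class I molecules as nearly all nucleated cells do, whereas class II molecules, which show peptides from endosomes to CD4+ T cells, are mainly made by professional antigen-presenting cells.

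Levels are given as TPM, the usual unit of transcript abundance, in which reads are divided by gene length and brought to a fixed total per library. K382Q cells were compared with K382R cells by limma on log2(TPM + 0.5), so each log2 fold change is on that scale and K382Q minus K382R, and a gene was called where the p-value adjusted over all 15426 genes tested was below 0.05. Of the 56 genes, 33 reached 0.5 TPM in at least 3 of the 6 libraries and were tested. Each of them reached it in libraries of both groups, but the filter could also be met by 1 group alone. The H2-K2 pseudogene reached 0.5 TPM in every K382R library and, of the K382Q libraries, only in replicate 1 (0.541 TPM). K382Q cells had lower levels of 22 of them and higher levels of 2, H2-Q10 and Cd74, and 9 were not called. The shares of all genes called were 36.9% lower and 11.1% higher, against 66.7% of the 33 lower. Groups that do not overlap, as given below for single genes, were common, with 42.8% of all genes tested lower in K382Q cells without overlap. Between K382Q and K382R cells, the median log2 fold change was -0.46 over these 33 genes and -0.14 over all genes tested. Only H2-DMb1 fell more than 2-fold, and 2.61% of all genes were called lower by more than 2-fold. With a limit of 1.5-fold, 9 members were called lower, against 8.34% of all genes. The log2 fold changes of the members are shown beside the median of all genes in the plot of the 33 tested genes.

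TPM values are shares of a library, and the median of all genes was below 0 by 0.14. With median-ratio scaling, which sets that median to 0.00, the median of the 33 genes was -0.31, with 18 called lower and 2 higher, and 54.5% were lower against 20.4% of all genes, of which 19.9% were called higher. The calls of B2m, Psmb9, Psme1 and H2-Q1 were lost with this scaling. Fabp4, the most abundant adipocyte marker examined, took 46394 to 50292 TPM in K382Q and 37390 to 38541 TPM in K382R cells. Its part in the shift was not tested.

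**Figure D1:**
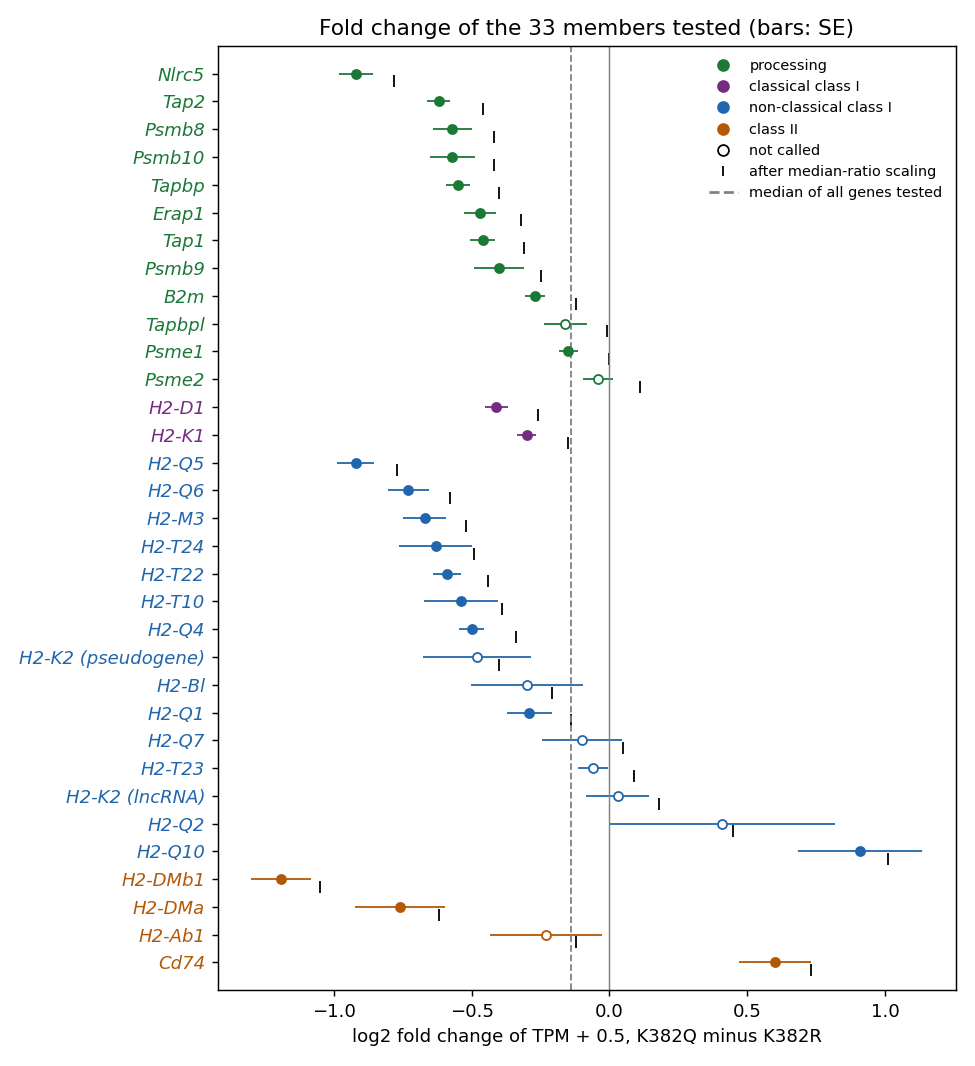
Log2 fold change of TPM + 0.5 (K382Q minus K382R, x axis) for the 33 genes tested, with SE as bars, filled points for genes called by limma, open points for genes not called and ticks for the value after median-ratio scaling. The points of 22 called genes lie left of 0, those of H2-Q10 and Cd74 lie right of it, and the dashed line marks the median of all genes tested at -0.14.

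The libraries held an estimated 5.952 to 7.5 Gb of aligned bases in K382Q and 6.526 to 8.154 Gb in K382R cells. Total Pparg, in which the vector's transcript and the endogenous one cannot be told apart, was 1104 to 1333 TPM in K382Q and 1590 to 1632 TPM in K382R cells, a fall by 0.43 on the log2 scale (adjusted p = 0.000977). The groups thus differed in the level of Pparg transcripts as well as in residue 382, and protein levels were not analysed here. Of 18 markers of leukocytes and antigen-presenting cells, 7 were at 0 in all 6 libraries, Cd3e and Adgre1 among them, Ptprc (CD45) reached at most 0.0129 TPM, and the 18 summed to 4.17 to 5.62 TPM in K382Q and 7.35 to 7.77 TPM in K382R cells. Of the 3 markers that could be tested, only Cd80, a ligand for T cell costimulation, was called lower (33.3%), against 36.9% of all genes. It had 0.367, 0.523 and 0.349 TPM in K382Q and 3.05, 1.6 and 2.07 TPM in K382R cells. The 6 stromal progenitor markers were all lower in K382Q cells, against 36.9% of all genes, and stayed so with median-ratio scaling, against 20.4%. They had sums of 570 to 615 TPM against 940 to 978 TPM and a median log2 fold change of -0.82. The largest falls among them were those of Thy1, a surface marker of progenitors, by 1.25 (adjusted p = 5.36e-05) and of Col1a1, a fibrillar collagen, by 1.00 (adjusted p = 6.72e-06). Of 6 adipocyte markers, 4 were lower and 1 was higher, against 36.9% and 11.1% of all genes. With median-ratio scaling 3 were lower and 2, Fabp4 and Plin1, were higher, against 20.4% and 19.9% of all genes. Both counts of lower markers include Pparg, in which the vector's transcript cannot be told apart, so it is no plain marker of adipocytes here. Adipoq, the hormone adiponectin, had 149, 147 and 148 TPM in K382Q and 383, 346 and 351 TPM in K382R cells, a fall by 1.28 (adjusted p = 7.63e-07), and Cebpa, an adipogenic transcription factor, fell by 0.81 (adjusted p = 3.95e-05). The part of these differences in the antigen-presentation genes was not tested, and in bulk RNA a smaller number of cells of one kind and less RNA per cell cannot be told apart.

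The classical heavy chains and B2m were among the most abundant transcripts of these cells and were lower in K382Q than in K382R cells. B2m ranked between 27 and 60 among the genes tested in the 6 libraries, and B2m, H2-K1 and H2-D1 together made 75.0% to 76.0% of the TPM of all 56 genes. H2-K1 (chr17:34214991-34219321 in GRCm39, minus strand), a classical heavy chain, had 1475, 1511 and 1418 TPM in K382Q replicates 1 to 3 and 1831, 1838 and 1767 TPM in K382R replicates 1 to 3. All K382Q libraries lay below all K382R libraries, and H2-K1 fell by 0.30 on the log2 scale (SE 0.034, adjusted p = 0.000233). H2-D1 (chr17:35481706-35486475, plus strand), the other classical heavy chain, had 1253, 1370 and 1248 TPM in K382Q and 1731, 1720 and 1698 TPM in K382R cells. These groups did not overlap either, and H2-D1 fell by 0.41 (SE 0.0405, adjusted p = 0.000119). Under median-ratio scaling both stayed called, at -0.15 for H2-K1 and -0.26 for H2-D1.

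B2m (chr2:121978167-121983564, plus strand), the light chain that all class I heavy chains need to reach the cell surface, had 1734, 1825 and 1711 TPM in K382Q and 2095, 2187 and 2079 TPM in K382R cells. The groups were apart, with a fall by 0.27 (SE 0.0363, adjusted p = 0.000572), but with median-ratio scaling it was -0.12 and its adjusted p was 0.0502. The summed TPM of H2-K1 and H2-D1 was 1.56 to 1.58 times that of B2m in the K382Q libraries and 1.63 to 1.70 times in the K382R libraries. The ratio of H2-K1 to H2-D1 was 1.10 to 1.18 in K382Q and 1.04 to 1.07 in K382R cells. Neither ratio overlapped between the groups, and no test was made on them. The H2 haplotype of the line is not given in the labels, and reads of similar H2 genes could be assigned to one another, which bears on these levels and ratios. All 56 genes together took 0.578% to 0.619% of the transcripts in K382Q and 0.737% to 0.766% in K382R cells.

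**Figure D2:**
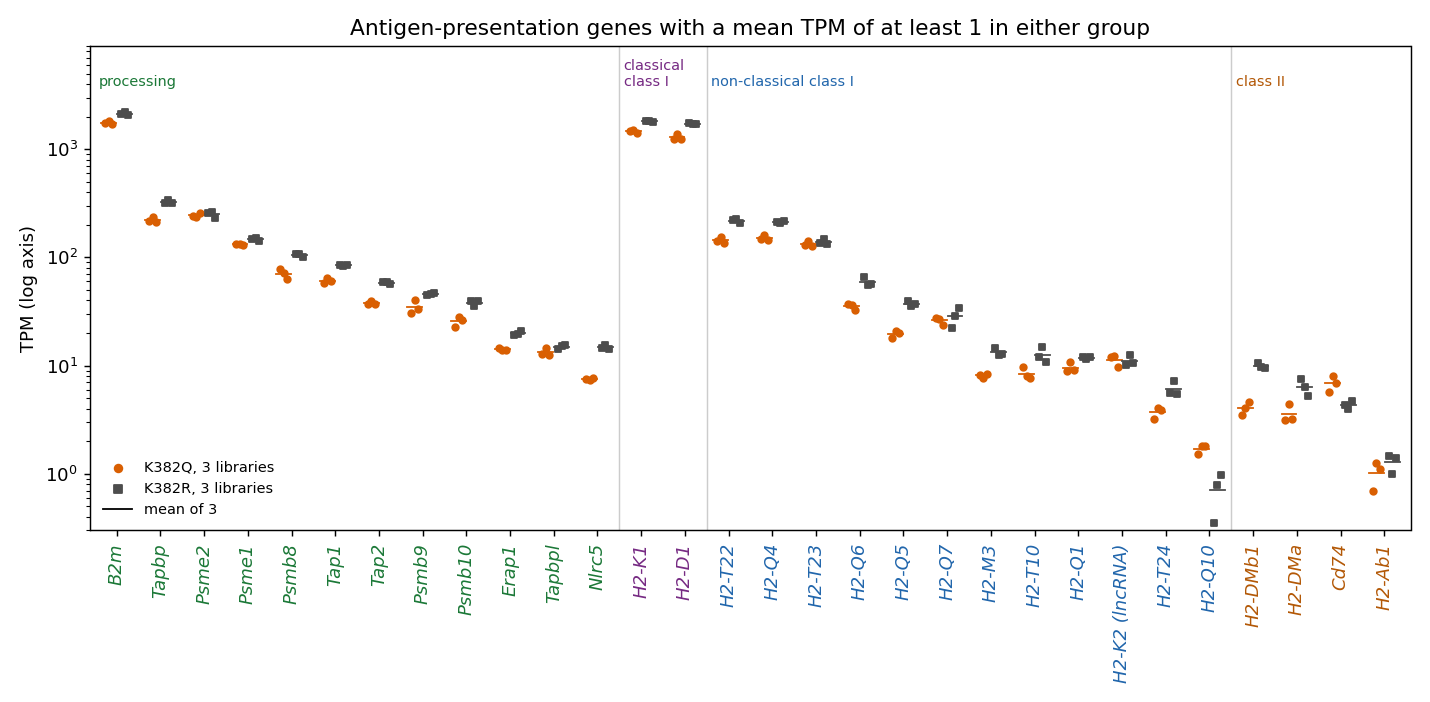
TPM (log axis) of the genes with a mean of at least 1 TPM in either group, in each of the 3 K382Q libraries (circles) and 3 K382R libraries (squares), with the mean of 3 as a line and genes ordered by class. B2m, H2-K1 and H2-D1 lie at 1248 TPM or more in every library, and the circles of H2-Q10 and Cd74 lie above the squares.

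The promoters of class I genes carry an interferon-stimulated response element, which binds interferon regulatory factors, next to a site for NF-κB. Promoter sequences from RefSeq (build GRCm38.p6, 250 bases before to 50 bases after the start of transcription) were used for 39 of the 55 symbols, and each window that was used was found in GRCm39 by an exact match to give its position. The window of H2-Q6 and that of H2-Q7 each occurred 2 times in GRCm39, and the copy at the gene's own start was taken. On both strands, the letters GAAANNGAAA were sought, with the shorter form GAANNGAAA, which was added after the sequences had been seen. The longer form was present in 5 of the 39 promoters (12.8%) and in 3.99% of the 27025 genes of the whole promoter table, among them 4 of 16 promoters of genes called lower and 1 of 4 of genes tested and not called. One or the other form was present in 13 of the 39 promoters (33.3%) and in 11.9% of all genes of the table. It was in 9 of 16 promoters of genes called lower, in that of H2-Q10, which was called higher, in 2 of 4 promoters of genes tested and not called, and in 1 of 18 of genes not tested. A match is only a description of the letters, and it was found in genes that were lower, higher and not called. Because the shorter form was chosen from these sequences, its share beside that of all genes is no test. Most of its matches are the same letters in similar H2 genes, which are not independent promoters. The following stretches are shown because they hold the match upstream of the start in tested class I genes and B2m (H2-M2, which also holds one, was at 0 in all 6 libraries). They read 5′ to 3′ on the gene's strand, with the match in capitals (TTTCNNTTC and TTTCNNTTTC are the forms on the opposite strand), and those of 30 bases are shorter because an exon of the same gene in GENCODE release M39 covers them, while exons of lncRNA genes cover those of H2-K1, H2-Q4, H2-Q6 and H2-Q10.
H2-K1, chr17:34219377-34219436, minus strand: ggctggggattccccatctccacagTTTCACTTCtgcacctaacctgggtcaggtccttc
H2-D1, chr17:35481910-35481939, plus strand: atctcctcagTTTCACTTCtgcacctaacc
H2-Q4, chr17:35598415-35598474, plus strand: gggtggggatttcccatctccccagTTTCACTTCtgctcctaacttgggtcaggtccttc
H2-Q6, chr17:35643649-35643708, plus strand: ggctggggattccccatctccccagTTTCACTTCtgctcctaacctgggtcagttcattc
H2-Q7, chr17:35657993-35658052, plus strand: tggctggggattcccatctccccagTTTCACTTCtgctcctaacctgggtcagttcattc
H2-Q10, chr17:35780806-35780865, plus strand: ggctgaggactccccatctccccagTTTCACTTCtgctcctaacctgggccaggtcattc
H2-M3, chr17:37580999-37581058, plus strand: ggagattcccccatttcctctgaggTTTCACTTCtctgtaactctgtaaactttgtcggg
H2-T22, chr17:36353791-36353850, minus strand: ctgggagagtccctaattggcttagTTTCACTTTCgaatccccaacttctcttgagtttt
H2-T23, chr17:36343698-36343727, minus strand: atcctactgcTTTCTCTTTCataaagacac
B2m, chr2:121978019-121978048, plus strand: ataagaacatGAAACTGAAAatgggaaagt

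Counted from the start of transcription, the shorter form stood at -113 to -105 in H2-Q7 and at -155 to -147 in H2-Q10, with the letters TTTCACTTC in both and in H2-K1, H2-D1, H2-Q4, H2-Q6 and H2-M3. The longer form stood at -139 to -130 in B2m. In Erap1 and Psme1 a match touched or followed the start of transcription. The gamma-activated site TTCNNNGAA, an element of interferon gamma response, was in 4 of 39 promoters (10.3%), those of H2-DMb2, H2-M11, H2-M3 and Psmb8, and in 9.55% of all genes. CCAAT, the core of the Y box bound by NF-Y, was in 31 of 39 promoters (79.5%) and in 41.1% of all genes. Tap1 and Psmb9 are read in opposite directions from starts 226 bases apart, so 275 of the 300 bases of their windows are shared, with no match to either form of the response element and 1 CCAAT that both windows hold.

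Of the 12 genes that process or load peptides or switch on class I genes (B2m and Nlrc5 included), 10 were called lower in K382Q cells and none higher, against 36.9% lower and 11.1% higher of all genes. With median-ratio scaling 7 of the 12 (58.3%) were lower, against 20.4% of all genes. Psmb8 (chr17:34416695-34420428), an induced catalytic subunit, had 77.4, 71.6 and 63.3 TPM in K382Q and 108, 107 and 100 TPM in K382R cells, a fall by 0.57 (SE 0.071, adjusted p = 0.000394). Psmb10 (chr8:106662367-106665076), another induced subunit, had 22.6, 28 and 26.6 TPM against 39.5, 35.9 and 39.3 TPM, a fall by 0.57 (SE 0.0818, adjusted p = 0.000832). Psmb9 (chr17:34400961-34406738), the third, had 30.5, 40.1 and 33.5 TPM against 44.6, 45.7 and 46.8 TPM, a fall by 0.40 (SE 0.0903, adjusted p = 0.00775). All K382Q libraries lay below all K382R libraries for the 3 induced subunits, as they did for 42.8% of all genes tested. Psmb9 was not called with median-ratio scaling (adjusted p = 0.0741) or quantile normalization (adjusted p = 0.0884).

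Each induced subunit takes the place of a constitutive one in the proteasome core, so their ratio was formed in each library. Psmb8 was 0.239, 0.214 and 0.184 of Psmb5 in K382Q and 0.292, 0.304 and 0.277 of it in K382R cells, and the log2 difference of the ratios was -0.46. Psmb10 was 0.0802, 0.104 and 0.0916 of Psmb7 in K382Q and 0.136, 0.123 and 0.141 of it in K382R cells, a log2 difference of -0.54. These 2 ratios did not overlap between the groups, and each had a two-sided exact permutation p of 0.1, the smallest that 3 against 3 libraries allow, or 0.15 after adjustment over the 3 ratios. Psmb9 was 0.0901, 0.113 and 0.094 of Psmb6 in K382Q and 0.105, 0.107 and 0.113 of it in K382R cells, where the groups overlapped (exact permutation p = 0.4, adjusted p = 0.4). Of the constitutive partners, Psmb5 fell by 0.11 (adjusted p = 0.0247), Psmb6 by 0.27 (adjusted p = 0.000256), and Psmb7 was not called at -0.04 (adjusted p = 0.436). Psmb5 was not called with median-ratio scaling, where it lay at 0.04, and Psmb7 was then called higher at 0.11.

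**Figure D3:**
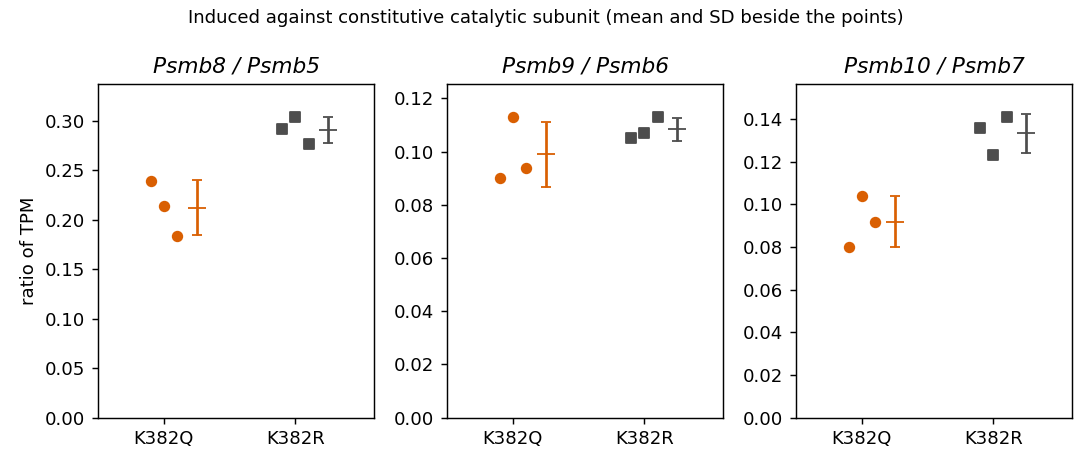
Ratio of TPM of each induced catalytic subunit to its constitutive counterpart in each K382Q library (circles) and K382R library (squares), with the mean and SD of 3 beside the points and the axis starting at 0. The groups are apart for Psmb8/Psmb5, with means of 0.212 and 0.291, and for Psmb10/Psmb7, with means of 0.092 and 0.133, and they overlap for Psmb9/Psmb6.

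The other genes of the constitutive proteasome were also lower. Of a list of 17 core, cap and assembly genes, 16 were called lower in K382Q cells and none higher, with a median log2 fold change of -0.26. Of all genes, 36.9% were lower and 11.1% higher. With median-ratio scaling 10 of the list were lower and 1 higher, at a median of -0.11, against 20.4% and 19.9% of all genes. The largest change of the list was that of Psma5, a structural core subunit, which had 281, 269 and 273 TPM in K382Q and 496, 493 and 508 TPM in K382R cells, a fall by 0.86 (SE 0.0289, adjusted p = 8.51e-07). Psmb2, a core subunit of the catalytic ring, followed at -0.37. Psme1 and Psme2 form the activator cap that is induced by interferon gamma. Psme1 (chr14:55815580-55818986) had 133, 132 and 131 TPM in K382Q and 149, 151 and 141 TPM in K382R cells, a fall by 0.15 (SE 0.0345, adjusted p = 0.00728) that was close to the median of all genes, and it was not called after median-ratio scaling (adjusted p = 0.968). Psme2 (chr14:55824898-55828570), its partner, had 239, 238 and 257 TPM against 257, 265 and 233 TPM, with overlapping groups and no call (log2 fold change -0.04, adjusted p = 0.596), and its sign turned with median-ratio scaling, quantile normalization and FPKM.

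The peptide transporter, tapasin and the trimming peptidase were all lower in K382Q cells. Tap1 (chr17:34406527-34416199), which with Tap2 forms the peptide transporter of the ER, had 57.5, 64.4 and 61.1 TPM in K382Q and 84.5, 84.1 and 84.2 TPM in K382R cells, a fall by 0.46 (SE 0.0448, adjusted p = 0.000109). Tap2 (chr17:34422501-34435295) had 37.0, 39.3 and 37.2 TPM against 59.6, 58.8 and 56.3 TPM, a fall by 0.62 (SE 0.0419, adjusted p = 1.94e-05). Tapbp (chr17:34134873-34148266), which holds empty class I molecules at the transporter, had 218, 235 and 214 TPM against 320, 340 and 317 TPM, a fall by 0.55 (SE 0.0445, adjusted p = 4.41e-05). The groups were apart in all 3 genes, where 42.8% of all genes tested were lower without overlap. All 3 stayed called with median-ratio scaling, at -0.31, -0.46 and -0.40. Erap1 (chr13:74787687-74841320), the ER aminopeptidase that trims peptides, had 14.7, 13.8 and 14.0 TPM in K382Q and 19.1, 19.6 and 20.8 TPM in K382R cells, with no overlap and a fall by 0.47 (SE 0.0569, adjusted p = 0.000341). Tapbpl (chr6:125200896-125208823), a relative of tapasin that edits peptides on class I molecules, had 12.7, 14.7 and 12.6 TPM against 14.1, 15.3 and 15.4 TPM. Its groups overlapped and it was not called (log2 fold change -0.16, adjusted p = 0.123), but it was called lower without K382Q replicate 2 (adjusted p = 0.0327). The gene models of Tap1 and Psmb9 overlap by 212 bases, that of Tapbp overlaps Zbtb22 by 3422 bases and that of Tapbpl overlaps Vamp1 by 7928 bases, and whether reads were counted by strand is not given in the sources used here.

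General ER chaperones and peptidases, in a list of 15 genes, were lower in 10 and higher in 3, against 36.9% and 11.1% of all genes. Uggt1, which checks the folding of glycoproteins and of class I molecules, fell by 0.54 (SE 0.0403, adjusted p = 3.01e-05), from 41.1 to 43.1 TPM in K382R to 28.2 to 29.4 TPM in K382Q cells. Sec61g, a subunit of the ER translocon, rose by 0.57 (SE 0.0824, adjusted p = 0.000825), with 151, 167 and 166 TPM in K382Q and 110, 121 and 95.6 TPM in K382R cells. The median of the list was -0.28. With median-ratio scaling it was -0.13, with 7 genes lower and 4 higher, against 20.4% and 19.9% of all genes.

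Nlrc5 (chr8:95160984-95253900), the transactivator of class I genes, had the largest fall of the processing group. It had 7.56, 7.43 and 7.62 TPM in K382Q and 14.7, 15.4 and 14.1 TPM in K382R cells. The groups were far apart relative to their spread, with 7.53 ± 0.0982 TPM (SD, n = 3) against 14.7 ± 0.643 TPM and a fall by 0.92 on the log2 scale (SE 0.0622, adjusted p = 1.86e-05 by limma). It lay at -0.78 with median-ratio scaling, and its adjusted p was at most 0.000327 over the 16 alternative settings. Ciita (chr16:10297923-10346282), the corresponding transactivator of class II genes, was too low to be tested, with 0, 0.0301 and 0.0511 TPM in K382Q and 0.165, 0.109 and 0.114 TPM in K382R cells.

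Of 15 further regulators of class I and class II promoters, 14 were tested, of which 10 were lower in K382Q cells and none higher. Of all genes, 36.9% were lower and 11.1% higher. The median of the list was -0.17, close to the -0.14 of all genes. With median-ratio scaling, 6 were lower, against 20.4% of all genes, and the median was -0.02, against 0.00. The largest change of the list was that of Stat2, a factor of type I interferon signalling in the complex that binds the response element. It had 27.8, 27.4 and 25.6 TPM in K382Q and 49.6, 49.3 and 50.4 TPM in K382R cells, a fall by 0.87 (SE 0.0441, adjusted p = 4.64e-06). The groups did not overlap, and Stat2 stayed called with median-ratio scaling, at -0.72. Irf1, an interferon-induced activator of class I genes, was at 70.3, 73.7 and 72.1 TPM in K382Q and 78.4, 79.7 and 78.6 TPM in K382R cells. It fell by 0.13 (SE 0.0325, adjusted p = 0.0118), which was about the median of all genes, and was not called with median-ratio scaling (log2 fold change 0.02). Rfx5, the DNA-binding subunit of the RFX complex through which Nlrc5 and Ciita act, was not called, at 13, 14.3 and 13.7 TPM against 15.5, 14.9 and 14.5 TPM (log2 fold change -0.13, adjusted p = 0.125).

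Of 28 non-classical class I genes, 15 were tested, and 8 were lower, 1 was higher and 6 were not called, against 36.9% lower and 11.1% higher of all genes. With median-ratio scaling 7 of the 15 (46.7%) were lower, against 20.4% of all genes. Of the 6 that were not called, H2-Q2, H2-Bl and the H2-K2 pseudogene had means below 1 TPM in both groups. In the H2-Q family, H2-Q4 (chr17:35598593-35604266) was the most abundant, with 148, 160 and 144 TPM in K382Q and 214, 206 and 218 TPM in K382R cells, a fall by 0.50 (SE 0.044, adjusted p = 7.12e-05). H2-Q6 (chr17:35643826-35649031) had 37.2, 36.4 and 32.8 TPM against 65.3, 55.1 and 57.4 TPM, a fall by 0.73 (SE 0.0738, adjusted p = 0.000137). H2-Q5 (chr17:35613102-35616776) had 17.9, 20.7 and 19.9 TPM against 39.2, 35.4 and 37.4 TPM, a fall by 0.92 (SE 0.0667, adjusted p = 2.66e-05). None of the 3 overlapped between the groups, where 42.8% of all genes tested were lower without overlap.

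H2-Q7 (chr17:35658131-35662749), the neighbour of H2-Q6 with a near-identical sequence, had 27.6, 27.1 and 23.9 TPM in K382Q and 22.1, 29.0 and 34.4 TPM in K382R cells. The K382R libraries were spread widely and on both sides of the K382Q libraries, and H2-Q7 was not called (log2 fold change -0.10, SE 0.146, adjusted p = 0.623). The sum of H2-Q6 and H2-Q7 was not tested, and reads could be split between such copies by the authors' counting. H2-Q1 (chr17:35539381-35544075) had 8.99, 10.7 and 9.09 TPM against 11.9, 11.4 and 12.1 TPM, without overlap. Its fall by 0.29 (SE 0.0811, adjusted p = 0.0199) was called in the full set but lost without K382Q replicate 1 (adjusted p = 0.0572), K382Q replicate 3 (0.0653), K382R replicate 1 (0.0567) or K382R replicate 3 (0.0619). H2-Q10 (chr17:35780986-35785460), known as a secreted class I molecule of the liver, was one of the 2 genes that were higher in K382Q cells, with 1.54, 1.79 and 1.80 TPM against 0.355, 0.784 and 0.974 TPM. It did not overlap and rose by 0.91 (SE 0.224, adjusted p = 0.0113), at a read depth of only 1.01 to 2.86 per base. H2-Q2 was at most 0.66 TPM and was not called. Summed over all 8 genes, H2-Q transcripts had 241, 257 and 232 TPM in K382Q and 353, 338 and 360 TPM in K382R cells, a fall by 0.52 (SE 0.0436, adjusted p = 5.15e-05).

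In the H2-T family, H2-T10, H2-T22, H2-T23 and H2-T24 were tested, and 3 of them were called lower, against 36.9% of all genes. The same 3 were called lower with median-ratio scaling, against 20.4% of all genes. H2-T22 (chr17:36348020-36353639), a ligand of some γδ T cells, had 143, 154 and 136 TPM in K382Q and 220, 225 and 207 TPM in K382R cells, a fall by 0.59 (SE 0.0512, adjusted p = 6.34e-05). H2-T23 (chr17:36340665-36343747), which shows leader peptides of other class I molecules to natural killer cells, had 129, 142 and 127 TPM against 136, 147 and 133 TPM. Its groups overlapped, and it was not called (log2 fold change -0.06, SE 0.0541, adjusted p = 0.414), while the sign of its change turned to 0.09 with median-ratio scaling, 0.06 with quantile normalization and 0.03 with FPKM. H2-T10 (chr17:36426768-36432357), a near copy of H2-T22, had 9.71, 7.97 and 7.62 TPM against 12.1, 14.8 and 10.7 TPM, a fall by 0.54 (SE 0.134, adjusted p = 0.0119). H2-T24 (chr17:36316587-36331452) had 3.22, 4.06 and 3.92 TPM against 5.57, 7.16 and 5.49 TPM, a fall by 0.63 (SE 0.133, adjusted p = 0.0056). H2-T10 and H2-T24 did not overlap between the groups, where 42.8% of all genes tested were lower without overlap. The gene models of H2-T22, H2-T23 and H2-T24 overlap that of A930015D03Rik, by 1316, 3083 and 14866 bases. The H2-T genes summed to 285, 308 and 275 TPM in K382Q and 374, 394 and 356 TPM in K382R cells, a fall by 0.37 (SE 0.0516, adjusted p = 0.00068). The difference in change between H2-T22 and H2-T23 was not tested.

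H2-M3 (chr17:37581111-37585375), which binds formylated peptides of bacteria and mitochondria, had 8.23, 7.71 and 8.45 TPM in K382Q and 14.5, 12.6 and 12.7 TPM in K382R cells. It did not overlap and fell by 0.67 (SE 0.0774, adjusted p = 0.000276), or by 0.52 with median-ratio scaling. The other H2-M genes were not tested. H2-K2 has a lncRNA and an overlapping pseudogene under the same symbol. The lncRNA (chr17:34193608-34197811) had 11.9, 12.4 and 9.70 TPM in K382Q and 10.1, 12.6 and 10.5 TPM in K382R cells and was not called (log2 fold change 0.03, adjusted p = 0.833). The pseudogene (at most 0.851 TPM) and H2-Bl (at most 1.11 TPM) were not called either (adjusted p = 0.0776 and 0.27).

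Class I-like genes outside the H2 region, in a list of 11, did not share one direction. Of 9 tested, 2 were lower and 3 higher, against 36.9% and 11.1% of all genes. Their median of -0.12 was close to the -0.14 of all genes. With median-ratio scaling 1 was lower and 4 were higher, against 20.4% and 19.9% of all genes. Cd1d1, which shows lipids to natural killer T cells, had 25.7, 25.9 and 23.4 TPM in K382Q and 33.6, 31.9 and 38.8 TPM in K382R cells, a fall by 0.46 (SE 0.078, adjusted p = 0.0018). Fcgrt, the heavy chain of the neonatal Fc receptor, which also pairs with B2m, had 85.5, 94.8 and 88.2 TPM against 68.3, 62.0 and 64.4 TPM, a rise by 0.46 (SE 0.0517, adjusted p = 0.000236). The groups were apart in both genes.

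Of the class II genes, most were at or near 0. Of 14, 4 were tested, of which 2 were lower and 1 was higher, against 36.9% and 11.1% of all genes. The 14 summed to 13.2, 17.9 and 16.2 TPM in K382Q and 24.6, 21.4 and 21.2 TPM in K382R cells, a fall by 0.50 (SE 0.113, adjusted p = 0.00768). H2-DMb1 (chr17:34372046-34379204), a chain of the DM molecule that exchanges the invariant-chain fragment for peptide, had 3.48, 4.07 and 4.62 TPM in K382Q and 10.6, 9.65 and 9.43 TPM in K382R cells. It did not overlap and had the largest fall of the 33 tested genes, by 1.19 (SE 0.109, adjusted p = 8.4e-05), or by 1.05 with median-ratio scaling. H2-DMa (chr17:34338515-34358075), the other DM chain, had 3.16, 4.43 and 3.18 TPM against 7.55, 6.40 and 5.29 TPM. It did not overlap and fell by 0.76 (SE 0.163, adjusted p = 0.00613), in a gene model that overlaps Brd2 by 3094 bases. Its deposited coverage was 0.484 to 1.70 per base, low for its TPM. Cd74, at 3.94 to 8.01 TPM, had a coverage of 8.33 to 17.8, so that of H2-DMa is not a plain measure of read depth.

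Cd74 (chr18:60936920-60945724), the invariant chain that guides class II molecules to endosomes, went the other way. It had 5.67, 8.01 and 6.85 TPM in K382Q and 4.37, 3.94 and 4.68 TPM in K382R cells, with no overlap and a rise by 0.60 (SE 0.131, adjusted p = 0.00688), or by 0.73 with median-ratio scaling. The peptide-binding chains were near 0. H2-Ab1 (chr17:34476663-34488393), a β chain, had 0.70, 1.25 and 1.12 TPM in K382Q and 1.45, 0.991 and 1.39 TPM in K382R cells, which overlapped and were not called (adjusted p = 0.392). H2-Aa, the α chain it pairs with, was listed at 0 in 5 libraries and at 0.15 TPM in K382Q replicate 2. H2-Eb1 reached at most 0.13 TPM, and H2-Ea and H2-Eb2 were at 0 in all 6 libraries. H2-Oa and H2-DMb2 reached at most 0.175 and 0.282 TPM, H2-Ob and the pseudogene H2-Pa were at 0 in all 6, and the pseudogene H2-Pb reached at most 0.0904 TPM. Of the leukocyte and antigen-presenting cell markers, Cd68, a lysosomal protein abundant in macrophages, was at 3.44, 4.15 and 4.66 TPM in K382Q and 4.15, 5.1 and 3.17 TPM in K382R cells, where it was about as high as Cd74, and Fcer1g, an Fc receptor chain, reached 1.69 TPM. Neither was called, and the part of other cell types in the class II values was not tested.

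Of 8 genes of endosomal class II processing, 6 were tested, of which 5 were lower and 1 was higher, against 36.9% and 11.1% of all genes. The median was -0.37. With median-ratio scaling it was -0.22, with 4 lower and 1 higher, against 20.4% and 19.9% of all genes. Ctsb, a lysosomal cathepsin found in most cells, had 276, 274 and 268 TPM in K382Q and 434, 431 and 431 TPM in K382R cells, a fall by 0.66 (SE 0.0257, adjusted p = 1.58e-06). Ifi30, the interferon-inducible thiol reductase of lysosomes, had 50.2, 52.9 and 52.3 TPM against 32.1, 34.6 and 34.4 TPM, a rise by 0.61 (SE 0.0447, adjusted p = 2.76e-05). The groups were apart in both.

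In all, 23 of the 56 genes stayed under the filter, 13 of them non-classical class I and 10 class II genes. Of these, 12 were at 0 in all 6 libraries, among them H2-M2, H2-M11 and 5 of the H2-M10 genes, and the highest value of any was 0.282 TPM. Of the 33 tested genes, 23 were lower in K382Q cells without overlap of the groups (69.7%), against 42.8% of all genes tested, and 2 were higher without overlap.

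Most members lie in one stretch of chromosome 17 (17:34193608 to 37794443, 3.6 Mb, from H2-K2 to H2-M2), among genes with other functions. Of the 24 members tested within it, 16 were called lower (66.7%) and 1 higher, with a median of -0.47. Over all genes tested, 36.9% were lower and 11.1% higher, with a median of -0.14. Among the members in the stretch, the calls of H2-Q1 and Psmb9 were lost with median-ratio scaling. Of 289 other genes in the stretch, 109 were tested. Of these, 37 were called lower (33.9%) and 10 higher, with a median of -0.10, close to the values of all genes. With median-ratio scaling 11 were lower and 18 higher, with a median of 0.03. All genes then had 20.4% lower and 19.9% higher, with a median of 0.00. Of the 9 tested members outside it, 6 were called lower (B2m, Nlrc5, Psmb10, Erap1, Tapbp and Psme1), against 36.9% of all genes. Tapbp counts as outside only because H2- symbols bound the stretch. It lies just before it on chromosome 17, at 34134873 to 34148266. Cd74 was called higher, against 11.1% of all genes, and Psme2 and Tapbpl were not called. With median-ratio scaling the calls of B2m and Psme1 were lost.

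**Figure D4:**
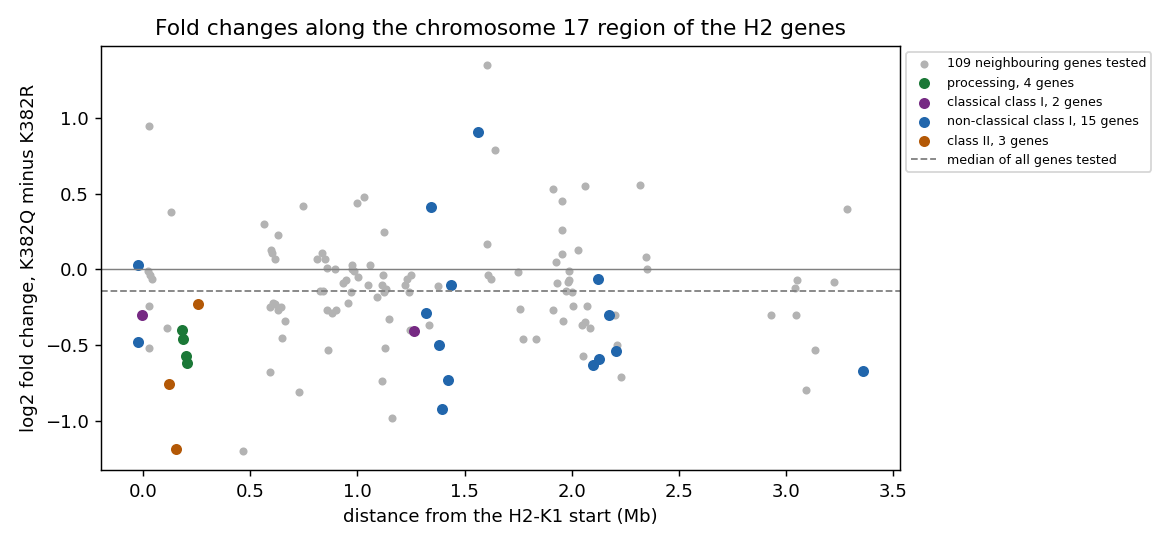
Log2 fold change (K382Q minus K382R) against the distance from the start of H2-K1 in Mb, for tested members (coloured by class) and 109 tested neighbours (grey) on chromosome 17. Most coloured points lie under the dashed line at -0.14, the median of all genes tested, and the grey points scatter around it.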

How the data were processed

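Total RNA of 6 libraries, 3 of each mutant, had been prepared with a NEBNext Ultra RNA kit and sequenced as paired reads. Per the study's methods, the authors trimmed adapters with TrimGalore, aligned to GRCm39 with HISAT2, sorted with SAMtools and measured genes with StringTie. The release of the annotation is not given in the sources used here. The authors deposited 1 gene table per library. In it, the deposited coverage signal counts how often, on average, the bases of a gene were read, and is not normalized. The FPKM that the authors deposited is scaled to the library, but the quotient of coverage and FPKM was not the same for all genes. B2m had up to 2187 TPM at a coverage of up to 6968, and Pparg up to 1632 TPM at a coverage of up to 122. The TPM that the authors deposited brings every library to 1 common sum. Where an ID was repeated within a table (up to 5 repeats per library), its values were added up. The aligned bases of each library were estimated as the most frequent quotient of coverage and FPKM. Counts were not analysed here, so no counting interval is given, and precision rests on 3 replicates per group.

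TPM was tested as log2(TPM + 0.5) with limma 3.58.1 (intensity trend, R 4.3.3) over genes with at least 0.5 TPM in at least 3 libraries, with Benjamini-Hochberg adjustment over all of them, after the fit had been tested on simulated data. Family sums were fitted in the same way. Alternatives were other pseudocounts and filters, FPKM, median-ratio scaling, quantile normalization, array weights, no trend, a replicate block, leaving out each library and fold limits. Members, gene lists and tests were chosen with earlier results of these data known. Every member with a mean of at least 1 TPM in a group is named with all its values, every other classical, class II and processing member is named, and list genes are named as counterparts, regulators or the 2 largest changes of their list. Promoter sequences are from RefSeq (GRCm38.p6). Fabp4, Pparg, Cd68, Fcer1g and the leukocyte markers at or near 0 were named after their values had been seen. A regulator that the rule would name is not reported here.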

Additional observations from a re-analysis of the deposited data

How the results depend on the processing

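Each fit was repeated under 16 alternative settings, one change at a time. Of the 24 called genes, 20 kept their call in every setting that tested them, 18 lower and 2 higher. The same count was not made over all called genes, so this share cannot be set beside theirs. With median-ratio scaling, 3143 of all genes tested were called lower and 3069 higher. With median-ratio scaling the calls of B2m, Psmb9, Psme1 and H2-Q1 were lost, with quantile normalization those of Psmb9, Psme1 and H2-Q1, and with FPKM those of Psme1 and H2-Q1. Over all genes tested, 5698 were lower and 1717 higher, so 23.2% of the calls were higher, against 49.4% with median-ratio scaling, 47.7% with quantile normalization and 36.3% with FPKM. A limit of 1.5-fold left 9 members called lower and a limit of 2-fold left 1 called lower and 0 called higher, fewer by construction.

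The changes of sign were among genes that were not called, and their cause was not tested. Log2 fold changes turned to 0.05 (H2-Q7), 0.09 (H2-T23) and 0.11 (Psme2) with median-ratio scaling, to 0.06 for each of these 3 genes and 0.00124 for Tapbpl with quantile normalization, to 0.03 (H2-T23) and 0.05 (Psme2) with FPKM, and to -0.01 for the H2-K2 lncRNA with array weights. Leaving out each library in turn gave -0.03 to 0.14 for the H2-K2 lncRNA, -0.27 to 0.05 for H2-Q7 and -0.09 to 0.000231 for Psme2. Leaving out a library removed the call of H2-Q1 and no other call of a member, and Tapbpl was newly called lower without K382Q replicate 2. The H2-K2 pseudogene was newly called lower without the intensity trend (adjusted p = 0.0218).

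The labels number the replicates of both groups 1 to 3, but same-numbered libraries did not deviate together (correlations of -0.0177, 0.0507 and 0.0223), and not every library correlated best with its own number. With the replicate block, all 24 called members stayed called, 22 lower and 2 higher, and 5387 genes were lower and 1600 higher over all genes. Read depth limits H2-Q10, H2-Ab1, H2-Q2, H2-Bl and the H2-K2 pseudogene, whose coverage was below 3 reads per base in every library. The coverage of H2-DMa was also below 3, but it was low for the TPM of this gene.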
